A study of Mus musculus with 24 samples.

Results

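The acyl-CoA thioesterases of the Acot family were followed in fasted mouse liver, as 10 genes chosen by name (Acot1, Acot2, Acot3, Acot4, Acot6, Acot8, Acot9, Acot11, Acot12 and Acot13) out of 54532 genes in the count table. The rule used gene names and no measured value, though earlier results of these data were known when the family was picked. The table held 13 genes named Acot with a number, and the other 3 (Acot5, Acot7 and Acot10) were kept with more distant relatives. RNA-seq of whole liver was made from 24 male C57/BL6J mice of 8 to 10 weeks after a 24 h fast, with 4 livers in each of 6 genotypes. Rab30 encodes a small GTPase of the secretory pathway, and Cpt2 encodes carnitine palmitoyltransferase 2, the mitochondrial enzyme that long-chain fatty acids need for β-oxidation. The genotypes were mice without Rab30 in the whole body (Rab30KO), their wild-type littermates (Rab30 Ctrl), mice without Rab30 in the liver (Rab30L-/-), mice without Cpt2 in the liver (Cpt2L-/-), mice without both in the liver (DKO) and mice with floxed alleles of both genes and no Cre (ff;ff). The liver deletions used the Albumin promoter to drive Cre, which the paper uses to delete genes in hepatocytes, and cells without Cre keep intact genes. The labels name the ff;ff mice as littermates of the DKO, so Cre and, for both single knockouts, litter differ together with the deleted gene against ff;ff and cannot be told apart there. DKO and Rab30L-/- both carry Cre, but no label makes them littermates, so litter and the deleted Cpt2 cannot be told apart in that comparison either. It shares no library with Cpt2L-/- against ff;ff. The paper also lists Rab30-floxed and Cpt2-floxed littermates as controls of the single knockouts. Whether the other gene was floxed in the single knockouts is not given by the labels, and it cannot be told apart from litter there.

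Thioesterases split acyl-CoA into a free fatty acid and CoA. In liver they act in separate compartments: Acot1 in the cytosol, Acot2 and Acot9 in mitochondria, and Acot3, Acot4, Acot6 and Acot8 in peroxisomes, where they return CoA to a limited pool. Acot1 to Acot6 are α/β hydrolases that arose by gene duplication, while Acot8, Acot9, Acot11, Acot12 and Acot13 are built of hotdog domains. Several of the type I genes are known targets of Pparα, the nuclear receptor that fatty acids activate during fasting.

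Acot1, Acot2, Acot3, Acot4, Acot5 and Acot6 lie side by side on chromosome 12 (GRCm38, 83987861 to 84111349, plus strand), a cluster of 123.5 kb. Their coding sequences are close copies, and those of Acot1 and Acot2 were 95.2% identical over 1239 aligned bases, against 75.9% to 85.8% for the other pairs of the cluster. The start of the Acot2 coding sequence and that of Acot1 are shown because this is where the mitochondrial and the cytosolic enzyme differ most. Capitals mark the 123 bases (41 codons) of Acot2 that precede the start codon of Acot1 in the alignment, the end of the protein where a mitochondrial leader lies. Both stretches are in exon 1 (Acot2 chr12:83987902-83988084 and Acot1 chr12:84009510-84009569).
Acot2: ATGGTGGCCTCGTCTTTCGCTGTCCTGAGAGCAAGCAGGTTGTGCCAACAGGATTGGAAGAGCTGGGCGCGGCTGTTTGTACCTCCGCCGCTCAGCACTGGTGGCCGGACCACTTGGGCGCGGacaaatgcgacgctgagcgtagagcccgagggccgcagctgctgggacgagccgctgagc
Acot1: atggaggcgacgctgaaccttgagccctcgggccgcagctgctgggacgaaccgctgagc

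Further downstream the copies share stretches without a difference. The longest run without a difference is 273 coding bases in exon 3 of both genes, at chr12:84017006-84017278 in Acot1 and chr12:83992728-83993000 in Acot2, and a read that falls wholly inside it could come from either gene.
Acot1 and Acot2: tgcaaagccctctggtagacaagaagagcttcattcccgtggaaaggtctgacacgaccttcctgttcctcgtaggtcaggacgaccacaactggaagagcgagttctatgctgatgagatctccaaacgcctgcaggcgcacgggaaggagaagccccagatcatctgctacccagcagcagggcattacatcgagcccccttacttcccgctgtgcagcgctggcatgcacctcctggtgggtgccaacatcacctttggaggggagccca
Of all windows of 100 bases in the transcripts of a gene, 12.4% of Acot1, 17.1% of Acot2 and 13.8% of Acot3 occurred in another gene as well, against 0.336% of Acot4, 0.95% of Acot6 and 0.705% of Acot9. With windows of 50 bases the shares were 19.2%, 27.7% and 19.1% for Acot1, Acot2 and Acot3, 4.53% for Acot4, 3.77% for Acot6 and 15.2% for Acot9, which shares them with Acot10. No window of either length was shared for Acot8, Acot11, Acot12 or Acot13. The overlapping gene model Gm49366 was among the genes that shared those of Acot3. How the deposited counts treated such reads is not given in the sources used here, and the values of Acot1, Acot2 and Acot3, and to a lesser extent those of Acot4, Acot6 and Acot9, are uncertain for that reason. Acot3 and Acot4 also overlap the gene model Gm49366 on the same strand, Acot8 overlaps Snx21, Acot11 overlaps Fam151a and Acot12 overlaps an antisense RNA, with strand use not stated.

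Windows before the start sites are shown for Acot1 and Acot2, which had the largest changes, and for Acot4 and Acot12, which held the closest matches to a receptor element. RefSeq promoters (GRCm38.p6) were at hand for 8 of the 10 members. A direct repeat of AGGTCA with any 1 base between the copies, the kind of element that Pparα and other nuclear receptors bind, was searched on both strands from 250 bases before to 50 bases after the start. An exact match stood in 0.0396% of 32841 such promoters and in none of the family. Acot12 came within 1 mismatch, as 0.554% of all promoters did, and Acot4 within 2 mismatches, as 3.86% did. The best match had 3 mismatches in Acot2, Acot3 and Acot11 (24.6% of promoters came at least as close), 4 in Acot1 and Acot9 (79.8%) and 5 in Acot8. The 250 bases before each start are given, with the matches of Acot4 and Acot12 alone in capitals, from chr12:84009252-84009501, chr12:83987611-83987860, chr12:84038129-84038378 and chr13:91741271-91741520, all on the plus strand.
Acot1: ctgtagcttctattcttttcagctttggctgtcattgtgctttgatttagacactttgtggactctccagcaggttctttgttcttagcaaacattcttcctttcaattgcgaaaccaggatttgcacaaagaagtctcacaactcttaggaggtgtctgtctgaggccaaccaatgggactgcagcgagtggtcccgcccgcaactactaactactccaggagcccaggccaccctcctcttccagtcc
Acot2: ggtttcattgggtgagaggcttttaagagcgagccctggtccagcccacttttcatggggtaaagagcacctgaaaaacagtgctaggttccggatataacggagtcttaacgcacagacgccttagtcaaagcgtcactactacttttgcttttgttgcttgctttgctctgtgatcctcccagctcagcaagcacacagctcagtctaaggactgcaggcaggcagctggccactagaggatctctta
Acot4: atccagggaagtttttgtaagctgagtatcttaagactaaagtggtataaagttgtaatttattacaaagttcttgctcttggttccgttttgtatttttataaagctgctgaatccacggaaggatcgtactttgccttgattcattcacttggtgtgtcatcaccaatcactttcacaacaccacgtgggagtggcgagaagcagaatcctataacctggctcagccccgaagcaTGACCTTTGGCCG
Acot12: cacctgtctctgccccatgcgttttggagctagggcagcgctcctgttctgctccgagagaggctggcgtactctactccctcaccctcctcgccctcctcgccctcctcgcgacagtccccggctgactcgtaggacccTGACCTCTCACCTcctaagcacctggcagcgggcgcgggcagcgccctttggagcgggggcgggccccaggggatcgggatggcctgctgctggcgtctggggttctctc
These matches describe the letters only and are no evidence of binding, and elements outside this window were not searched.

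Library totals ran from 11801027 to 24497738 counts (median 14358966). Levels are given in CPM, counts scaled to a common library size by TMM, and levels of different genes are compared only in FPKM, which also divides by gene length. The targeted genes did not follow the labels throughout: Cpt2 counts differed by -0.07 (log2) between Cpt2L-/- and ff;ff (adjusted p = 0.788, edgeR) and by -1.07 between DKO and Rab30L-/- (adjusted p = 4.5e-04). The latter difference came with a high level in Rab30L-/- (mean 219 CPM), since DKO (105 CPM) and ff;ff (132 CPM) differed by -0.34 (adjusted p = 0.0911). Rab30 went against its label in DKO, where it was highest (mean 161 CPM), beside 147 CPM in Cpt2L-/- and 36.6 CPM in ff;ff. It differed by -1.10 between Rab30L-/- and ff;ff (adjusted p = 0.174) and by -0.34 in Rab30KO against Rab30 Ctrl (adjusted p = 1.0). A count over a whole gene also holds exons outside a deletion, so it checks a label only in part, and each library is called by its label. The Rab30 deletion removes exon 4, and the paper tested its lines by qRT-PCR for Rab30 and Cpt2 and by a Rab30 immunoblot. It also reports more Rab30 mRNA in fasted Cpt2L-/- livers than in controls. Hepatocyte markers (7 of 8 in the table) were high in every liver, with a summed level of 91320 to 120261 CPM in ff;ff, 79622 to 90779 CPM in Rab30L-/-, 43613 to 53224 CPM in Cpt2L-/- and 57687 to 69751 CPM in DKO. Of these 7 markers, 4 fell in Cpt2L-/- against ff;ff and 4 in DKO against Rab30L-/-, beside 11.9% and 15.8% of all genes that fell. Their part in the changes below was not tested. Adipocyte markers summed to at most 3.61 CPM in any group, with Retn at 0 throughout. In whole liver, fewer cells of a type and less RNA per cell cannot be told apart.

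In livers labelled as lacking Cpt2, most thioesterases were higher. Against ff;ff, 6 of the 10 genes rose in Cpt2L-/- (Acot1, Acot2, Acot6, Acot8, Acot9 and Acot12), Acot11 fell, and Acot3, Acot4 and Acot13 did not pass, where passing means an adjusted p under 0.05 over all genes tested and a change of at least 1.2-fold in edgeR's quasi-likelihood test. Of all 13270 genes tested in this comparison, 23.8% passed, 11.9% higher and 11.9% lower. DKO against Rab30L-/- gave 8 higher, 0 lower and 2 not called (Acot3 and Acot11), beside 30.7% of all genes, 14.9% higher and 15.8% lower. All 10 genes entered both tests, and their median change was 1.19 and 1.34 (log2), with a median of -0.00 and -0.01 over all genes. Mitochondrial, cytosolic and peroxisomal members were all among those that rose.

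**Figure D1:**
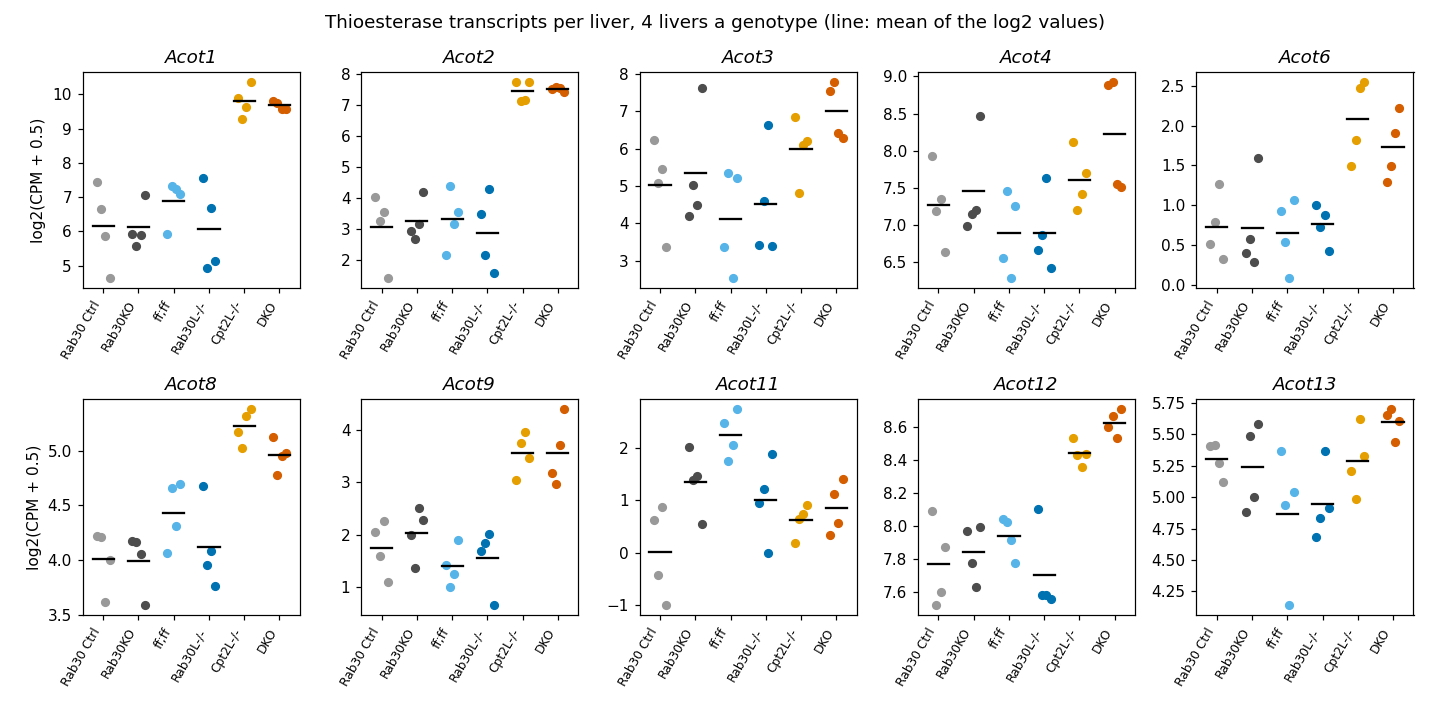
Level of each thioesterase in every liver as log2(CPM + 0.5), with 1 panel a gene on its own vertical scale, 4 points a genotype and a black line at the mean of the log2 values. The Cpt2L-/- and DKO livers stand above the other 16 for Acot1, Acot2, Acot8, Acot9 and Acot12, while Acot3 and Acot4 spread widely within genotypes and Acot11 has its highest mean in ff;ff.

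Acot2, the mitochondrial enzyme, changed most. It lay at 4.02, 8.36, 11.3 and 20.6 CPM in ff;ff and at 138, 141, 213 and 214 CPM in Cpt2L-/-. All 4 knockout livers were far above all 4 controls, and the difference was 15.7-fold (log2 3.97, SE 0.45, adjusted p = 2.8e-04, edgeR). In Rab30L-/- it lay at 2.51, 3.96, 10.6 and 19.1 CPM and in DKO at 171, 182, 184 and 191 CPM. These groups were again apart, by 19.8-fold (log2 4.31, SE 0.60, adjusted p = 0.00193), and the DKO livers were the most alike of any group.

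Acot1, its cytosolic near-copy, lay at 60.6, 135, 150 and 160 CPM in ff;ff and at 626, 785, 948 and 1321 CPM in Cpt2L-/-, apart by 7.22-fold (log2 2.85, SE 0.32, adjusted p = 7.7e-05). In Rab30L-/- it varied from 29.7 to 189 CPM and in DKO from 755 to 899 CPM, again apart, by 9.26-fold (log2 3.21, SE 0.61, adjusted p = 0.0066). The groups without Cpt2 deletion stayed low and overlapped one another, with means of 126 CPM in ff;ff, 89.0 in Rab30 Ctrl, 88.6 in Rab30L-/- and 75.2 in Rab30KO. Per length, Acot2 stood at a median of 0.134 of Acot1 in ff;ff (range 0.0997 to 0.229) and at 0.357 in Cpt2L-/- (0.290 to 0.400). The corresponding medians were 0.184 in Rab30L-/- (0.0999 to 0.335) and 0.396 in DKO (0.361 to 0.436), so that in both comparisons the ratio ranges did not overlap. In Rab30 Ctrl the ratio ran from 0.159 to 0.344, into the range of Cpt2L-/-, and in Rab30KO from 0.214 to 0.256. Summed over the 6 genes of the cluster, the mean level was 4.79-fold higher in Cpt2L-/- than in ff;ff (942 to 1820 against 170 to 399 CPM). It was 5.71-fold higher in DKO than in Rab30L-/- (1204 to 1765 against 133 to 419 CPM). The sum keeps reads that were counted for the wrong copy. It does not keep any that were discarded or given to a gene outside the cluster, and whether such reads existed is not known.

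Of the peroxisomal members, Acot6 and Acot8 rose in both comparisons, Acot4 passed in DKO against Rab30L-/- but not in Cpt2L-/- against ff;ff, and Acot3 passed in neither. Acot8, a peroxisomal thioesterase of broad specificity, lay at 16.2, 19.3, 24.8 and 25.4 CPM in ff;ff and at 32.0, 35.6, 39.3 and 41.2 CPM in Cpt2L-/-. This modest separation of 1.71-fold had little spread within groups (log2 0.77, SE 0.17, adjusted p = 0.0043). DKO livers (27.0 to 34.5 CPM) were also above Rab30L-/- (13.1 to 25.1 CPM), by 1.76-fold (adjusted p = 0.00778).

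Acot6, a low-abundance member of the cluster, lay at 0.558, 0.946, 1.40 and 1.59 CPM in ff;ff, from 8 to 25 counts a library, and at 2.31, 3.02, 5.05 and 5.37 CPM in Cpt2L-/-. The groups were apart by 3.48-fold (log2 1.80, SE 0.38, adjusted p = 0.00385), and DKO was 2.41-fold above Rab30L-/- (adjusted p = 0.0126), at levels low enough that counting error weighs on each value.

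Acot3 and Acot4 varied widely between livers of a genotype. Acot4, which acts on succinyl-CoA and other dicarboxylic acyl-CoAs, lay at 77.6, 94.1, 152 and 176 CPM in ff;ff and at 147, 171, 207 and 277 CPM in Cpt2L-/-. These groups overlapped, and the 1.59-fold difference missed the threshold (log2 0.67, 95% interval 0.08 to 1.26, adjusted p = 0.0946). In DKO a pair of livers stood at 470 and 487 CPM and the other pair at 183 and 188 CPM, while Rab30L-/- ran from 85.6 to 198 CPM. Here the 2.67-fold difference passed (log2 1.42, SE 0.41, adjusted p = 0.0302) although the groups overlapped, and it no longer passed when any of Rab30L-/- replicates 1, 2 and 4 or DKO replicates 1 and 2 was left out (adjusted p = 0.0702, 0.0768, 0.0729, 0.0748 and 0.0718), nor without a filter on low counts (0.108).

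Acot3, a peroxisomal thioesterase of long-chain acyl-CoAs, spread still more widely, from 5.30 to 40.7 CPM in ff;ff, 27.9 to 115 CPM in Cpt2L-/-, 9.95 to 99.1 CPM in Rab30L-/- and 77.8 to 222 CPM in DKO. Neither difference passed, at log2 1.61 (95% interval -0.11 to 3.32, adjusted p = 0.164) and log2 2.02 (-0.06 to 4.09, adjusted p = 0.129). The latter result depended on a single liver and on the test used. Without Rab30L-/- replicate 3, the highest of its group and the most deeply sequenced library of all, the DKO difference was log2 3.29 (adjusted p = 0.00576, edgeR). With DESeq2's Wald test on all 8 libraries its adjusted p was 0.045.

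Among the members built of hotdog domains, mitochondrial Acot9 had the largest rise in both comparisons. It lay at 1.48, 1.88, 2.18 and 3.24 CPM in ff;ff and at 7.75, 10.6, 12.9 and 15.2 CPM in Cpt2L-/-, with no overlap and a 5.24-fold difference (log2 2.39, SE 0.28, adjusted p = 6.3e-05). DKO ran from 7.36 to 20.7 CPM and Rab30L-/- from 1.06 to 3.52 CPM, apart by 4.71-fold (log2 2.24, SE 0.40, adjusted p = 0.00235). The gene whose level followed Acot9 most closely over the 24 livers was Cd68, a macrophage marker that is also a lysosomal protein. The Kupffer cell markers (9 genes, all detected) had summed levels of 203 to 372 CPM in ff;ff and 165 to 243 CPM in Cpt2L-/-, and 259 to 740 CPM in Rab30L-/- against 157 to 191 CPM in DKO. Of these markers 0 rose in either comparison, while 3 and 8 of the 9 fell, beside 11.9% and 15.8% of all genes that fell. The part of macrophages in the level of Acot9 was not tested.

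Acot13, a small thioesterase that associates with mitochondria and the phosphatidylcholine transfer protein, lay at 17.1, 30.1, 32.4 and 40.7 CPM in ff;ff and at 31.2, 36.5, 39.7 and 48.9 CPM in Cpt2L-/-. The groups overlapped, and the difference of log2 0.36 had a 95% interval of -0.13 to 0.86 (adjusted p = 0.277). DKO livers (42.8 to 51.6 CPM) were all above Rab30L-/- livers (25.2 to 40.7 CPM), by 1.56-fold (log2 0.64, SE 0.15, adjusted p = 0.00671).

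Acot12, a cytosolic hydrolase of acetyl-CoA, varied little within ff;ff and Cpt2L-/-. It lay at 219, 241, 260 and 264 CPM in ff;ff and at 328, 345, 347 and 371 CPM in Cpt2L-/-. The groups were apart, but by only 1.40-fold (log2 0.49, SE 0.13, adjusted p = 0.0186), and the difference missed the threshold without ff;ff replicate 4, Cpt2L-/- replicate 1 or Cpt2L-/- replicate 4 (adjusted p = 0.0644, 0.0545 and 0.052). DKO (370 to 419 CPM) exceeded Rab30L-/- (188 to 275 CPM) by 1.88-fold (log2 0.91, SE 0.16, adjusted p = 0.00145).

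Acot11, a thioesterase with a lipid-binding START domain known best from brown fat, moved the other way, at low abundance. It lay at 2.84, 3.62, 5.07 and 6.16 CPM in ff;ff (48 to 97 counts) and at 0.641, 1.07, 1.17 and 1.37 CPM in Cpt2L-/- (10 to 22 counts). The groups were apart, and the level was 4.15-fold lower in Cpt2L-/- (log2 -2.05, SE 0.33, adjusted p = 6.6e-04). It did not pass in the other comparison, and the difference between the comparisons did not pass either (the interaction, log2 1.80, adjusted p = 0.111). Rab30L-/- stood at 0.503, 1.43, 1.81 and 3.19 CPM and DKO at 0.768, 0.976, 1.68 and 2.16 CPM, overlapping, with a difference of log2 -0.27 (95% interval -1.41 to 0.87, adjusted p = 0.734). The ff;ff group was the highest of the 6 (mean 4.42 CPM), followed by Rab30KO (2.22), Rab30L-/- (1.74), DKO (1.39), Cpt2L-/- (1.06) and Rab30 Ctrl (0.655), and every neighbouring pair in that order overlapped. The lowest value was a Rab30 Ctrl library with 0 counts, for which 3 counts would be 0.203 CPM. Between the control groups the difference was log2 2.77 in favour of ff;ff, with separate ranges and an adjusted p of 0.0849 in edgeR, 6.5e-04 in DESeq2's Wald test and 0.0198 in a fit over all 24 libraries. Acot11 lies on chromosome 4 (106744555 to 106804998, minus strand), 1.10 Mb from Cpt2.

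**Figure D2:**
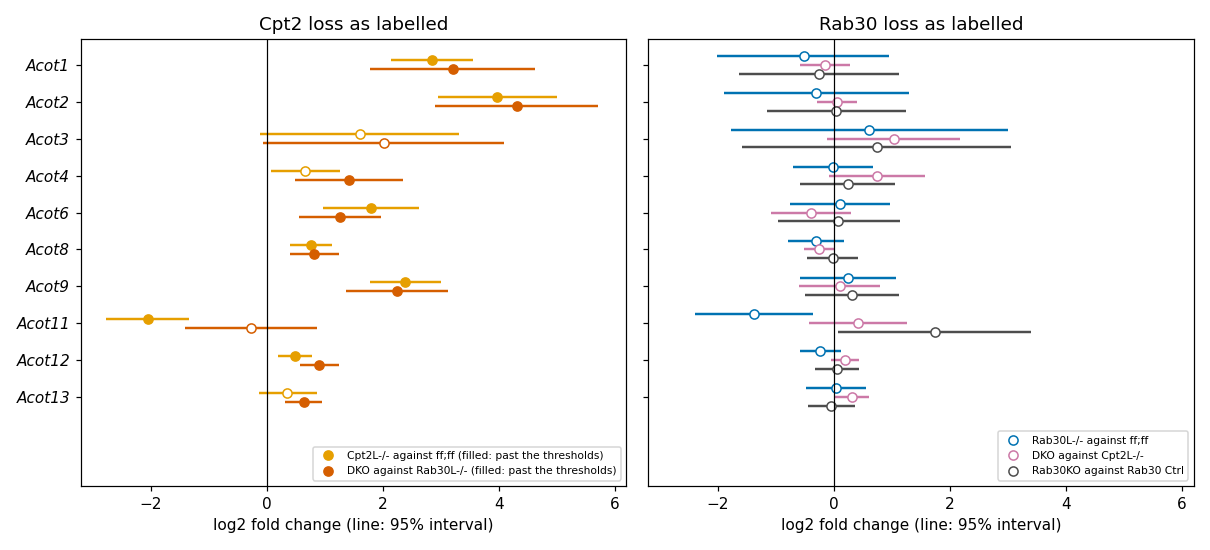
Log2 fold change of each thioesterase (horizontal axis) with its 95% interval from edgeR, for the comparisons that differ in the Cpt2 label (left) and in the Rab30 label (right), filled where past both thresholds. Acot2 lies at 3.97 and 4.31 on the left, Acot11 is filled at -2.05 and open at -0.27 on the left, and every marker on the right is open.

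The make-up of the family differed with the Cpt2 label. The summed FPKM of the 10 genes was 194 ± 25.8 (SD, n = 4) in ff;ff and 173 ± 42.6 in Rab30L-/-, against 554 ± 110 in Cpt2L-/- and 602 ± 72.1 in DKO. Acot12 was the largest part in ff;ff, at 39.7% ± 6.02 of the sum, followed by Acot13 (21.2% ± 6.97) and Acot1 (17.0% ± 6.17). In Cpt2L-/- Acot1 was the largest, at 42.1% ± 5.49, followed by Acot12 (19.8% ± 3.80) and Acot2 (14.6% ± 1.42), and the ranges of the Acot1 share did not overlap (8.63% to 23.5% against 37.9% to 50.2%). DKO resembled Cpt2L-/- in this order, with Acot1 at 35.6% ± 1.44, Acot12 at 20.6% ± 2.42 and Acot2 at 14.2% ± 1.45. Acot6, Acot9 and Acot11 each made up 0.0177% to 1.68% of the sum in these 4 groups. By counts alone the order changes, since Acot13 has a short transcript of 744 bases and Acot4 one of 6674 bases: Acot4 was ranked 3 in ff;ff by CPM and Acot13 was ranked 4.

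**Figure D3:**
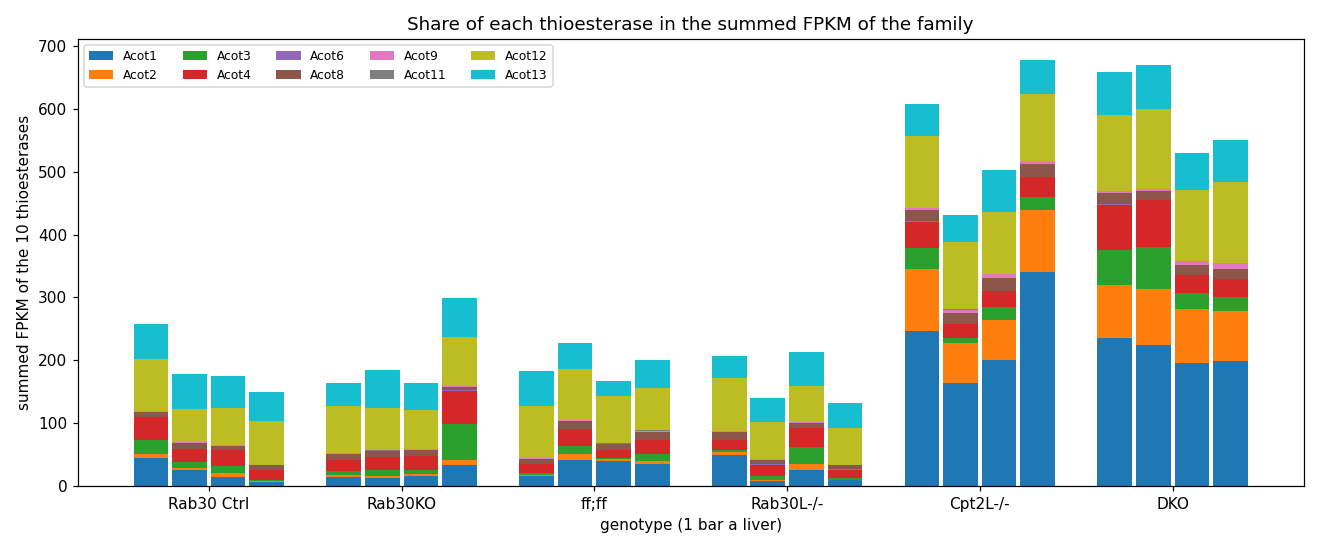
Summed FPKM of the 10 thioesterases in each liver (vertical axis from 0), 1 stacked bar a liver and 1 colour a gene. The bars of Cpt2L-/- and DKO reach 430 to 678 FPKM and hold large Acot1 and Acot2 parts, while those of ff;ff reach 167 to 227 FPKM and consist mostly of Acot12 and Acot13.

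No thioesterase passed the same test for the Rab30 label. Against ff;ff, 0 of 10 passed in Rab30L-/- (0.479% of all genes passed, 0.299% higher and 0.18% lower), and 1 had an unadjusted p under 0.05, Acot11, with a difference of log2 -1.37 (95% interval -2.40 to -0.35, adjusted p = 0.293). In Rab30KO against Rab30 Ctrl 0 of 10 passed (0.022% of all genes), again with Acot11 alone under an unadjusted 0.05, but in the opposite direction (log2 1.74, interval 0.07 to 3.40, adjusted p = 1.0). In DKO against Cpt2L-/- 0 of 10 passed (2.71% of all genes, 1.38% higher and 1.33% lower), and 1, Acot13, had an unadjusted p under 0.05 (log2 0.31, interval 0.02 to 0.61, adjusted p = 0.209). DESeq2's Wald test also called 0 of 10 in each of these comparisons. The intervals set what could have been missed. For Acot2 the DKO and Cpt2L-/- livers differed by log2 0.05 with an interval of -0.29 to 0.40, and for Acot1 by -0.15 (-0.59 to 0.28). In Rab30L-/- against ff;ff the intervals were far wider, from -2.01 to 0.96 for Acot1 and from -1.90 to 1.30 for Acot2, so that changes of more than 2-fold lay inside them.

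The groups may also be read against the shared control ff;ff. DKO against ff;ff gave 7 higher and 1 lower of 10, beside 16.1% of all genes, 7.87% higher and 8.24% lower, and it uses the same ff;ff libraries as the Cpt2L-/- comparison. Acot2 was 16.2-fold, Acot1 6.45-fold and Acot9 5.59-fold higher, and Acot11 was 3.12-fold lower (adjusted p = 0.0103). Acot3, apart from ff;ff in every liver, narrowly missed (log2 2.62, adjusted p = 0.0516), and so did Acot8 (log2 0.51, adjusted p = 0.0573), both of which passed with DESeq2's Wald test (0.00277 and 0.0325). Of the 7 that rose, 3 lost their call when 1 of several livers was left out. With each of the 8 libraries left out in turn, Acot4 no longer passed in 5 cases, Acot13 in 6 and Acot6 in 4, and Acot4 did not pass without a filter on low counts (adjusted p = 0.161). Acot13 passed narrowly on all 8 (0.0496) and did so no longer with DESeq2's size factors (0.0505). Whether the Rab30 effect depended on Cpt2 was tested as an interaction over 16 libraries, the change from Cpt2L-/- to DKO less that from ff;ff to Rab30L-/-. For 0 of 10 genes did it pass (4.06% of all genes, 2.2% higher and 1.86% lower) in edgeR or DESeq2's Wald test, and the unadjusted p was under 0.05 for Acot11 (log2 1.80, adjusted p = 0.111) and Acot12 (log2 0.43, adjusted p = 0.21). Between the control groups, ff;ff against Rab30 Ctrl, 0 of 10 passed as well (0.949% of all genes, 0.213% higher and 0.736% lower), with unadjusted p under 0.05 for Acot11 and Acot8 (log2 0.46, adjusted p = 0.349) and 1 gene, Acot11, called by DESeq2's Wald test.

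Livers of 1 genotype differed from each other in step for some genes of the cluster. For each pair of Acot1, Acot2, Acot3, Acot4 and Acot6, the deviations of log2(CPM + 0.5) from the genotype means were correlated over the 24 livers, with two-sided p-values from 100000 permutations of livers within genotypes, adjusted over the 10 pairs. Acot3 and Acot4 were tied most closely, with Pearson's r of 0.92 (p = 1.0e-05, adjusted 1.0e-04) and Spearman's rho of 0.89 (p = 1.0e-05, adjusted 1.0e-04), where 1.0e-05 is the smallest p the permutations can give. Leaving out the livers farthest from the median of Acot3, 2 in number, gave r = 0.90. Acot1 and Acot2 followed with r = 0.86 (permutation p = 4.8e-04, adjusted 0.0016) and rho = 0.86 (p = 1.5e-04, adjusted 5.0e-04), and r = 0.85 without the outermost livers. Acot2 was tied less to Acot3 (r = 0.74, adjusted permutation p = 0.00365, and rho = 0.75, adjusted 0.0027) and Acot4 (r = 0.69, adjusted 6.5e-04, and rho = 0.70, adjusted 5.0e-04). Acot1 with Acot4 reached r = 0.52 (adjusted permutation p = 0.0184) and rho = 0.56 (adjusted 0.00838). For Acot1 with Acot3 the 2 measures fell on either side of the threshold, with r = 0.50 (adjusted permutation p = 0.0776) and rho = 0.55 (adjusted 0.0387), and r = 0.62 without the outermost livers. Acot6, at the end of the cluster, was not tied to any of them by this test, with r between 0.15 and 0.38 and rho between 0.14 and 0.35 (adjusted permutation p from 0.156 to 0.547), at counts low enough to blur such a relation.

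Acot1 and Acot2 share the run printed above, and Acot3 and Acot4 both overlap Gm49366. The part of shared reads in these ties was not tested. The liver that was highest for Acot3 among Rab30KO (replicate 4, 199 CPM against at most 31.9 in the others) was also highest for Acot4 (354 CPM), Acot1, Acot2, Acot6, Acot12 and Acot13, and lowest for Acot8 and Acot11. Without it the Acot3 difference from Rab30 Ctrl turned from log2 0.74 to -0.77, with neither past the threshold (adjusted p = 1.0 in both).

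**Figure D4:**
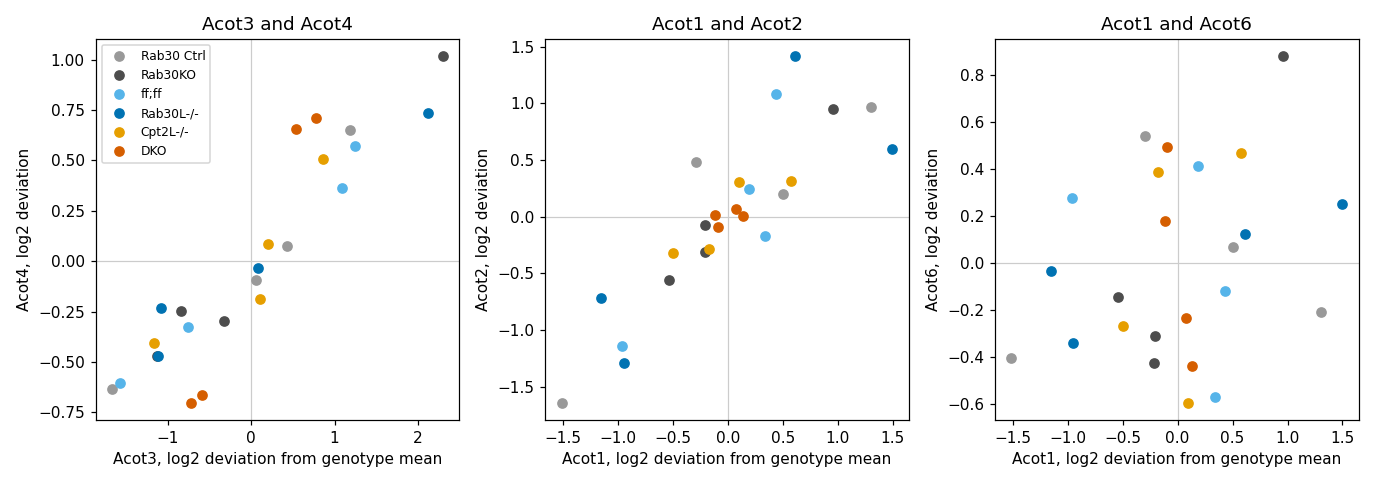
Deviation of each liver from its genotype mean on the log2(CPM + 0.5) scale, 1 point a liver coloured by genotype, for Acot3 and Acot4 (left), Acot1 and Acot2 (middle) and Acot1 and Acot6 (right). Points of the left and middle panels rise along the diagonal (r = 0.92 and 0.86), and those of the right panel scatter (r = 0.27).

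Over the 24 livers, the genes whose log2 levels were most like each called member were named as a description, among 14584 genes and with no p, since the points share genotypes and a Cpt2 difference alone makes many genes alike. Acot1 was most like Acot2 (r = 0.971), then Slc22a5, the plasma membrane carnitine transporter (0.967), and Ppp2r2d, a phosphatase subunit (0.959). Acot2 was most like Acot1, Grpel2, a mitochondrial import co-chaperone (0.966), and Plin2, the lipid droplet coat protein (0.965). Acot8 went with Acaa1b, the peroxisomal thiolase (0.943), with Psmd11, a proteasome subunit (0.941), and with Gm15441 (0.940). For Acot9 the genes were Cd68 (0.935), Ywhah (0.934) and Pgm1 (0.925), for Acot6 Chmp4c (0.902), Hacd1 (0.901) and Mpdu1 (0.899), and for Acot12 Plaa (0.948), Picalm (0.947) and Reep3 (0.944). Acot11 had no near match, with Slc12a2 at 0.715, Pafah2 at 0.713 and Ube2u at 0.710.

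The wider set of genes that handle acyl-CoA did not move as one, and their counts stand beside 23.8% of all genes called in Cpt2L-/- against ff;ff (11.9% in each direction) and 30.7% in DKO against Rab30L-/- (14.9% higher and 15.8% lower). Of the more distant thioesterase relatives, 6 of 9 could be tested, and 0 rose while 3 fell in Cpt2L-/- against ff;ff: Acnat2, a peroxisomal acyl-CoA N-acyltransferase (log2 -1.24), Baat, which conjugates bile acids and can hydrolyse acyl-CoA (log2 -0.84), and Them4 (log2 -0.60). In DKO against Rab30L-/- 3 of 6 fell as well, Acnat2 (log2 -1.97), Acnat1 (-0.97) and Baat (-0.52), and Them4 was at log2 -0.03. Acot7, the remaining tested Acot gene, was at log2 -0.46 (adjusted p = 0.0542) and 0.06.

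Acyl-CoA synthetases, which make what thioesterases split, went both ways. Of 15 tested, 4 rose and 4 fell in Cpt2L-/- against ff;ff, and 7 rose and 4 fell in DKO against Rab30L-/-. The largest changes in the former were those of Slc27a1 and Slc27a4 (both log2 1.40), fatty acid transport proteins with synthetase activity, of Slc27a5, the bile acid and very long-chain synthetase (log2 -1.32), and of Acsf3, the mitochondrial malonyl-CoA synthetase (log2 1.10). Among 12 genes of CoA synthesis and breakdown, 1 rose, Ppcs of CoA synthesis (log2 1.12), and 1 fell, Nudt19, a peroxisomal CoA diphosphatase (log2 -0.59), and in DKO against Rab30L-/- 3 rose and 1 fell, with Ppcs at log2 1.41 and Nudt19 on the other side at 0.30 (adjusted p = 0.0644). The gene that fell there was Vnn3 (log2 -0.66), a pantetheinase by family. Vnn1, of the same family, lay the other way, with a mean of 168 CPM in DKO and 40.6 CPM in Rab30L-/- and overlapping ranges. Vnn3 and Vnn1 were named after their values were seen.

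Acyl-CoA binding and carnitine transfer genes rose in part, 6 of 10 in Cpt2L-/- against ff;ff and 4 of 10 in DKO against Rab30L-/-, with 0 lower in both. Crot, the peroxisomal carnitine octanoyltransferase, was at log2 1.45 and 0.62 (adjusted p = 0.0743 in the latter), Crat, the carnitine acetyltransferase, at 1.34 and 1.75, Slc22a5 at 0.90 and 1.38, and Cpt1a, which makes long-chain acylcarnitine, at 0.72 and -0.00. Among 18 Pparα targets, 11 rose and 0 fell in Cpt2L-/- and 13 rose and 0 fell in DKO. Pdk4, the pyruvate dehydrogenase kinase, was at log2 3.83 and 6.83, Cidec, a lipid droplet protein, at 3.52 and 2.97, Ehhadh of peroxisomal β-oxidation at 3.29 and 3.23, and Fgf21, a fasting hepatokine, at 2.73 and 3.13. The median of these targets was log2 1.12 and 1.69, beside 1.19 and 1.34 for the 10 thioesterases, and these lists were chosen with earlier results of the data known.

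**Figure D5:**
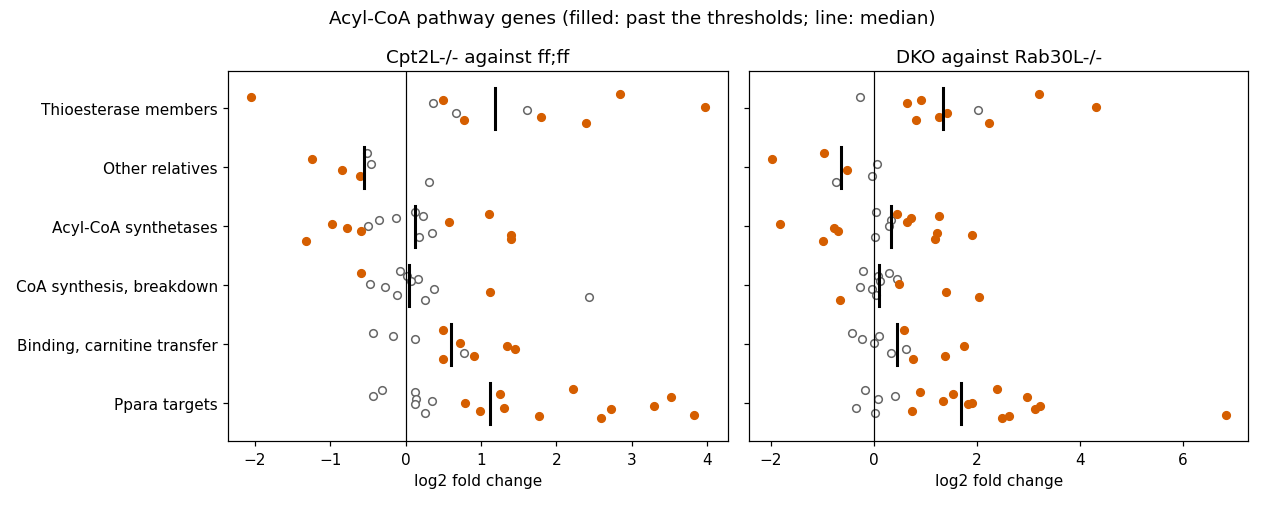
Log2 fold changes of the 10 thioesterases and of 5 lists of acyl-CoA genes, 1 point a gene, filled where past both thresholds, with a black line at the median, for Cpt2L-/- against ff;ff (left) and DKO against Rab30L-/- (right). The medians of the thioesterases (1.19 and 1.34) and of the Pparα targets (1.12 and 1.69) lie to the right of 0, those of the CoA genes and synthetases lie near it, and those of the other relatives lie to the left.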

How the data were processed

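Whole-liver RNA from 24 mice was sequenced by Novogene. The submitters' processing notes name HISAT2, DESeq2 and GRCm38 (mm10), and the counter, annotation, strand setting and versions are not given in the sources used here. The authors deposited raw counts per gene, and FPKM, which divide counts by gene length and a scaled library size. Their table of size-factor-normalized counts, and their tables of fold changes and p-values for pairwise comparisons, were not used. Listed coordinates equalled GENCODE M21 for 98.3% of genes, and sequences come from that release and from RefSeq.

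Fits used the 8 libraries of the 2 groups compared (16 for the interaction) and edgeR 4.0.16 in R 4.3.3 (filterByExpr, TMM, robust glmQLFit, glmQLFTest), with Benjamini-Hochberg adjustment over all genes tested. Past the thresholds means adjusted p under 0.05 and at least 1.2-fold (interaction: no fold). CPM are TMM-scaled over 24 libraries. Alternatives were DESeq2's size factors, DESeq2 1.42.0's Wald test, no filter on low counts, a fit over all 24 libraries, no fold threshold, sums over the cluster, and each library left out. Titles number the libraries as separate samples, taken here as separate mice; p-values measure the spread between them, and every pair within a group differed by more than counting noise. Named genes were the 10 members, Rab30 and Cpt2, of each pathway list at most 4 past the thresholds in Cpt2L-/- against ff;ff with the largest change and a mean of at least 1 CPM, and the 3 genes most correlated with each member called there. Other genes were named after their values were seen. Members and lists were chosen with earlier results of these data known. Intervals of fold changes come from the edgeR fits, and the floor given for a count of 0 covers counting error only, since reads carry no molecular identifiers.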

Additional observations from a re-analysis of the deposited data

Results flagged for a closer look

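In the 6 groups, 60 sets of 4 livers (10 genes each) were searched for a liver far from the rest, by the gap to its nearest neighbour over the whole range on log2(CPM + 0.5), set against Dixon's 95% critical value. Chance alone flags about 1 set in 20, and 2 were found. Acot4 in Rab30KO stood at 354 CPM in replicate 4 (gap ratio 0.851), against 126 to 147 CPM in the other livers of the group, and this liver was also the highest of its group for Acot1, Acot2, Acot3, Acot6, Acot12 and Acot13 and the lowest for Acot8 and Acot11. Acot12 in Rab30L-/- stood at 275 CPM in replicate 1 (gap ratio 0.952), against 188 to 191 CPM in the others. The same liver was the highest of its group for Acot1 (189 CPM), Acot6 (1.51 CPM) and Acot8 (25.1 CPM) and the lowest for Acot13 (25.2 CPM). The cause of either was not tested.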

How the results depend on the processing

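The counts of members called in Cpt2L-/- against ff;ff, DKO against Rab30L-/- and DKO against ff;ff stayed within 1.5 times the reported ones under every alternative, and ran from 6 to 8, 7 to 9 and 6 to 7 with 1 library left out. For ff;ff against Rab30 Ctrl, DESeq2's Wald test and the fit over all 24 libraries called 1 member in place of 0 (Acot11), and for the interaction 0 to 1 were called with a library left out (Acot12, log2 0.59, adjusted p = 0.0499 without Rab30L-/- replicate 1). Acot4 in Cpt2L-/- against ff;ff passed without ff;ff replicate 2 (log2 0.89, adjusted p = 0.0343). In DKO against ff;ff, Acot4, Acot13 and Acot6 missed the threshold with 5, 6 and 4 of 8 libraries left out in turn (highest adjusted p 0.102, 0.11 and 0.0857): DKO replicates 1 and 2 and ff;ff replicates 1, 3 and 4 for Acot4, the 4 DKO replicates and ff;ff replicates 2 and 4 for Acot13, and DKO replicates 3 and 4 and ff;ff replicates 2 and 3 for Acot6. Without a filter Acot4 missed it too (0.161) and Acot8 passed (0.0491).

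Only members not past the threshold changed sign. With 1 library left out, Acot11 ran from -0.61 to 0.22 (log2) in DKO against Rab30L-/-. In DKO against Cpt2L-/- Acot1 ran from -0.29 to 0.07, Acot2 from -0.04 to 0.16 and Acot9 from -0.27 to 0.28. In Rab30L-/- against ff;ff Acot2 ran from -0.97 to 0.19, Acot3 from -0.66 to 1.05, Acot4 from -0.31 to 0.21 (0.00 over all 24 libraries), Acot6 from -0.11 to 0.33 and Acot13 from -0.16 to 0.21. In Rab30KO against Rab30 Ctrl Acot1 ran from -0.70 to 0.32, Acot2 from -0.42 to 0.42, Acot3 from -0.77 to 1.24, Acot4 from -0.25 to 0.51, Acot6 from -0.51 to 0.38, Acot8 from -0.15 to 0.09, Acot12 from -0.03 to 0.18 and Acot13 from -0.17 to 0.08. In ff;ff against Rab30 Ctrl Acot2 ran from -0.24 to 0.61 and Acot6 from -0.30 to 0.22, and in the interaction Acot2 from -0.14 to 1.02, Acot3 from -0.01 to 1.70, Acot8 from -0.06 to 0.29 and Acot9 from -0.51 to 0.04. Summing the cluster in place of Acot1 gave 0.11 in DKO against Cpt2L-/-, 0.19 in Rab30KO against Rab30 Ctrl and -0.08 in ff;ff against Rab30 Ctrl.

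Over all genes, calls in DKO against Cpt2L-/- went from 360 to 1032 with DESeq2's Wald test, 705 without a filter and 114 over all 24 libraries, those in Rab30L-/- against ff;ff from 64 to 298 with DESeq2's Wald test and 240 without a filter, those in ff;ff against Rab30 Ctrl from 129 to 565 with DESeq2's Wald test, 352 without a filter and 302 over all 24 libraries, those in Rab30KO against Rab30 Ctrl from 3 to 10, 6 and 9 in the same order, and those of the interaction from 571 to 1080 and, over all 24 libraries, 374. With 1 library left out these counts ran from 57 to 445, 23 to 93, 53 to 177, 0 to 4 and 300 to 679. The cause was not tested. With 4 livers a group and Acot6 and Acot11 at few counts, small changes of these genes could not be detected. No paired analysis was possible because the labels give no replicate numbers that groups share.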

Other observations

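Acot5, a peroxisomal member of the cluster that was too low for the tests, had 0, 0, 0 and 1 counts in ff;ff and 0, 0, 0 and 1 counts in Rab30L-/-, 0, 0, 1 and 1 counts in Rab30KO and 0, 0, 2 and 6 counts in Rab30 Ctrl, beside 2, 6, 9 and 12 counts in Cpt2L-/- and 2, 4, 7 and 8 counts in DKO. Of its windows of 100 bases, 7.79% occurred in another gene as well, mainly Acot3 and the part of reads from its copies in these counts was not tested. Acot10, a copy of Acot9 that is 97.2% identical in its coding sequence, had at most 2 counts in any liver. Them5, a mitochondrial thioesterase, had 0 counts in all 4 Cpt2L-/- livers and 0 to 3 in DKO, against 0 to 18 in ff;ff, 3 to 17 in Rab30L-/-, 1 to 4 in Rab30 Ctrl and 0 to 6 in Rab30KO, and was not tested either. Of the members not called in Cpt2L-/- against ff;ff, Acot13 was most like Anxa4 (r = 0.833 over 24 livers) and then Tdp2 (0.816), a gene that begins 139 bases from it on chromosome 13, and Acot3 and Acot4 were each the nearest to the other (r = 0.952).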
